A study of Rattus norvegicus with 8 samples.

Results

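Regulators of G protein signalling (RGS proteins) were measured through 10 gene names on the array, Rgs1, Rgs2, Rgs3, Rgs4, Rgs7, Rgs8, Rgs9, Rgs10, Rgs14 and Rgs16. They were taken as the non-control spots whose gene name equalled one of these symbols, which gave 13 probes among 35199 gene names. Of the 10 genes, 8 were quantified in all 8 rats, and Rgs1 and Rgs16 were not.

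The data compare the dentate gyrus of ovariectomized adult female Sprague-Dawley rats (150 to 200 g) that went through status epilepticus (SE) with or without estradiol. COS rats (n = 4) received oil, and CES rats (n = 4) received 4 doses of 2 µg estradiol benzoate at intervals of 24 h. All 8 rats had been ovariectomized 1 week before the injections began, and all had kainic acid SE. The labels place 2 estradiol doses before SE and 2 after it, with kainic acid at 16 mg/kg and pentobarbital given after 5 h, whereas the methods of the study describe all injections before SE, another kainic acid dose and diazepam, and give more than 1 time of tissue collection. The comparison therefore covers estradiol in animals with seizures, and animals without SE are not analysed here. The labels name the rats as biological replicates, and each of the 4 two-colour arrays carried 2 rats of 1 group, replicates 1 and 3 in Cy3 and replicates 2 and 4 in Cy5.

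RGS proteins bind the active alpha subunit of a heterotrimeric G protein and speed its hydrolysis of GTP, which ends signalling by the alpha subunit and by the beta-gamma dimer. Small members such as Rgs1, Rgs2, Rgs3, Rgs4, Rgs8 and Rgs16 (the R4 subfamily) act on Gi/o or Gq proteins. Rgs7 and Rgs9 (the R7 subfamily) work in a complex with the Gnb5 beta subunit, and Rgs10 and Rgs14 belong to the R12 subfamily. In neurons these proteins shape the timing of receptor responses, for instance at potassium channels opened by beta-gamma, and transcripts of Rgs2 and Rgs4 are known to change with neuronal activity.

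The promoter stretches of Rgs2 and Rgs4 are shown because both transcripts were lower in CES rats. Those of Rgs1 and Rgs3 are shown because they hold the same motif. That of Rgs10 is given for contrast, since its difference ran the other way, though it was not called. Each is the 250 bases before the RefSeq transcription start in the GRCr8 build, written 5′ to 3′ on the strand of the gene. Capitals mark the letters TGACG on either strand (read as CGTCA on the opposite one), which is the short form of the cyclic AMP response element. They also mark the letters TATAAA, which are those of a core promoter box, whatever their distance from the start.
Rgs2, chr13:58352667-58352916, minus strand: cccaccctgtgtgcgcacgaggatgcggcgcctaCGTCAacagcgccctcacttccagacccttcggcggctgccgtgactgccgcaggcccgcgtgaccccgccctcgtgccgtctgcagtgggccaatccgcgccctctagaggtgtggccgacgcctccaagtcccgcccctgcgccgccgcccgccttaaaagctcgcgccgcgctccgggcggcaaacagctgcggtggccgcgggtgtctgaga
Rgs4, chr13:84475885-84476134, minus strand: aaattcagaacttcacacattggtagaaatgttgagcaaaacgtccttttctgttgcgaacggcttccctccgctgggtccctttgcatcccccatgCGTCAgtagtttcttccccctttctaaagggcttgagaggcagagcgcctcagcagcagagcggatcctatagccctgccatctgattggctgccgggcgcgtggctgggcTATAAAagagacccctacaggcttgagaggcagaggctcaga
Rgs1, chr13:58573188-58573437, minus strand: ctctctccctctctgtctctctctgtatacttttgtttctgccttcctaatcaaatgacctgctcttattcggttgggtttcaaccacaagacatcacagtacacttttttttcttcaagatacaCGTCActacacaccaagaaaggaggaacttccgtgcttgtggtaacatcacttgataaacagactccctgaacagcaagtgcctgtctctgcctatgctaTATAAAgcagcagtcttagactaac
Rgs3, chr5:81093801-81094050, plus strand: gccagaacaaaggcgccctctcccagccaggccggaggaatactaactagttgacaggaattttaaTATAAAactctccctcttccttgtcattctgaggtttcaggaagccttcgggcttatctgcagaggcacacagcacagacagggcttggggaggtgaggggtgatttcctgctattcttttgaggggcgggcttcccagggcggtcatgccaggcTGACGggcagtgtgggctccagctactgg
Rgs10, chr1:192418078-192418327, minus strand: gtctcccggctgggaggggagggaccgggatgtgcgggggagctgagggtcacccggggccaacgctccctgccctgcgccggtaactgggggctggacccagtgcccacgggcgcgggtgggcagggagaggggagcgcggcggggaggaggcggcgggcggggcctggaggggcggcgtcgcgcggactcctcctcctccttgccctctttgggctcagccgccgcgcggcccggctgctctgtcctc
All 10 genes had an entry among the RefSeq promoters, and 6 of the 10 lie on chromosome 13. Both strands of windows of 300 bases (250 before and 50 after the start) were searched. TGACG occurred in 4 of the 10 windows, those of Rgs1, Rgs2, Rgs3 and Rgs4, and in 21.2% of the windows of 33469 RefSeq promoters. It was absent from the other windows, among them that of Rgs7, which was called lower, and that of Rgs16. Counted from the start, its first base lay at -216 in Rgs2, -153 in Rgs4, -125 in Rgs1 and -29 in Rgs3. TATAAA occurred in 3 of the 10 windows, those of Rgs1, Rgs3 and Rgs4, and in 14.2% of all windows. Its first base lay at -25 in Rgs1, -42 in Rgs4 and -184, far from the start, in Rgs3. The full cyclic AMP response element TGACGTCA, the AP-1 site TGACTCA, the palindromic estrogen response element (GGTCA and TGACC with 3 bases between them) and the EGR site GCGTGGGCG occurred in 0 of the 10 windows, against 1.83%, 4.63%, 0.0269% and 0.544% of all windows. These matches are a description of the letters, and every TGACGTCA also holds a TGACG.

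Levels are given as log2 of the background-subtracted signal over the median of the valid spots of the same channel, where a spot is valid if its foreground is at least 2 times its background. A difference is the CES mean minus the COS mean on this scale, and a level belongs to its probe and cannot be set against that of another gene. Valid spots numbered 30690 to 38553 of 43379 per rat, and 21332 gene names were quantified in all rats. Within each dye, CES rats had fewer valid spots. In Cy3 they numbered 37716 and 38553 in COS rats and 33483 and 35352 in CES rats. In Cy5 they numbered 34759 and 32381 in COS rats and 31826 and 30690 in CES rats. The channel medians of COS and CES rats were thus taken over different sets of spots. The test was limma, with dye in the model and the 2 rats of an array treated as a random block, adjusted over all 21332 genes by the Benjamini-Hochberg method and called at 0.05. It called 1238 genes (5.8%) higher and 6038 genes (28.3%) lower in CES rats, with a median difference over all genes of -0.25. An alternative used normexp background correction (offset 50), loess normalization within arrays and Aquantile normalization between them. Its split was 3309 genes (15.5%) higher and 2221 (10.4%) lower, with a median of 0.04. Values given as under loess therefore differ from those with channel-median scaling in background correction as well as in normalization. A difference near -0.25 is therefore at the centre of all genes, and each RGS gene is also given as a median-centred difference, from which this median was subtracted.

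Of the 8 quantified RGS genes, 4 fell in CES rats (Rgs2, Rgs3, Rgs4 and Rgs7) and 0 rose, against 28.3% of all genes lower and 5.8% higher. The median difference of the 8 genes was -0.37, and 4 of them lay above the median of all genes. The 4 COS and 4 CES rats did not overlap for 3 of the 8 (Rgs2, Rgs4 and Rgs7, all lower), against 21.4% of all genes in either direction and 19.8% lower. Under loess, 3 fell (Rgs2, Rgs4 and Rgs7) and 2 rose (Rgs8 and Rgs10), against 10.4% and 15.5% of all genes. By the methods' t-test at an unadjusted p under 0.05, and without the study's cut-off on fold change, 0 were higher and 4 lower, against 3.62% and 25% of all genes. After Benjamini-Hochberg adjustment that test called 0 of the 8. The falls of Rgs4 and Rgs2 were large, since 1.24% of all genes had a lower difference than Rgs4 and 4.45% a lower one than Rgs2.

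**Figure D1:**
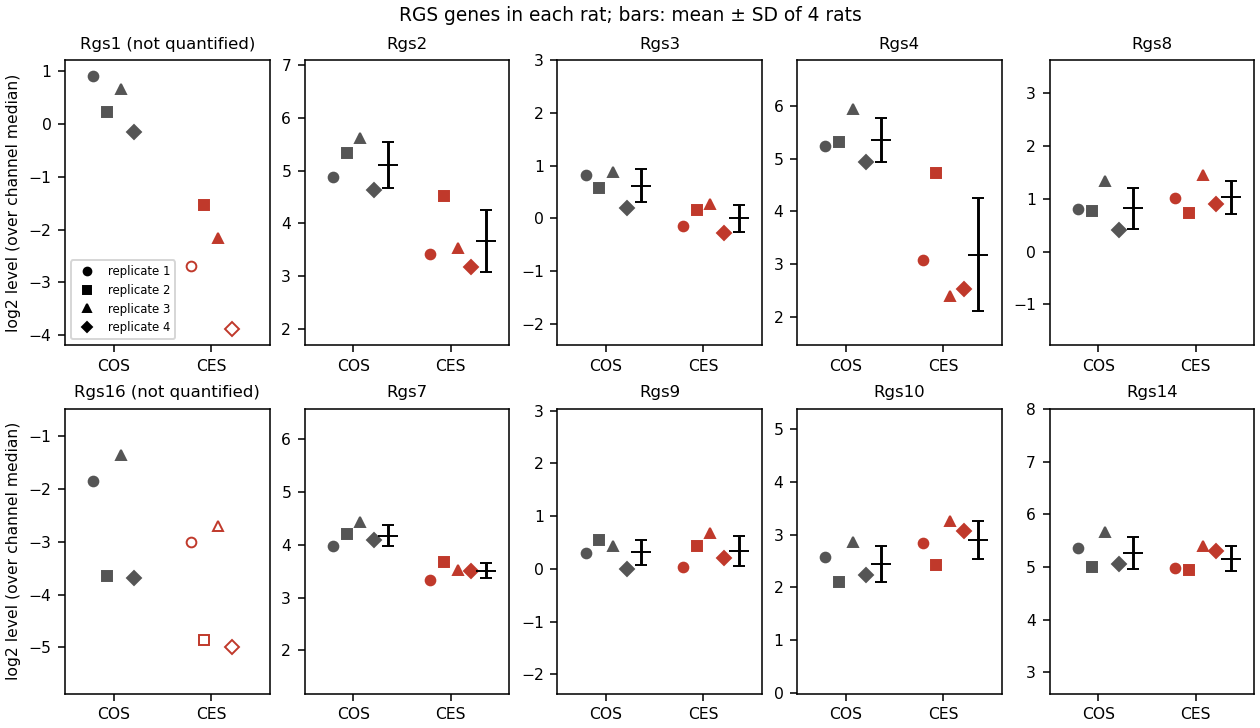
Log2 level of each RGS gene (over the channel median) in the 4 COS rats (grey) and the 4 CES rats (red), with a marker shape per replicate number, open markers for spots that were not valid, and bars for the mean ± SD of 4 rats. All panels span the same number of log2 units; Rgs2, Rgs4 and Rgs7 show no overlap between groups, CES replicate 2 sits above the other CES rats for Rgs4, and Rgs1 and Rgs16 have open markers in CES rats.

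Rgs4, an activity-regulated inhibitor of Gi/o and Gq signalling, had the lowest difference of the 8 quantified genes. The COS rats were at 5.23, 5.31, 5.94 and 4.94 in order of replicate number, and the CES rats at 3.07, 4.72, 2.39 and 2.52. The groups did not overlap, but CES replicate 2 stood close under the lowest COS rat while the other CES rats were further down. The difference was -2.18 (SE 0.46, 95% interval -3.21 to -1.14), a 4.53-fold lower level, with a limma adjusted p of 0.00834, and the median-centred difference was -1.92. Under loess it was -1.78 (adjusted p = 0.045). Leaving out COS replicate 3 gave -1.87 with an adjusted p of 0.0653, so the call was lost. That fit called 914 of all genes lower, against 6038 with all rats. Leaving out CES replicate 2 gave -2.76 (adjusted p = 2.35e-05).

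Both probes of Rgs4 fell. They lie at chr13:85534099-85534158 and chr13:85536780-85536839 on the minus strand of rn4, the build of the array's probe positions. The first, A_42_P743580, differed by -2.22 (SE 0.47, adjusted p = 0.00794 over all probes) and carried 2 outlier marks from the scanner software. With marked spots left out, Rgs4 rested on the second probe and differed by -1.44 (adjusted p = 0.0137) in place of -2.18. The second, A_44_P512255, differed by -1.44 (SE 0.36, adjusted p = 0.0144). In the second probe CES replicate 2, at 1.13, overlapped COS replicate 4, at 1.09.

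Rgs2, which acts chiefly on Gq, had the next lowest difference of the 8 quantified genes. Its COS rats were at 4.88, 5.33, 5.61 and 4.64 and its CES rats at 3.41, 4.52, 3.54 and 3.18. CES replicate 2 was again the highest of its group, just below the lowest COS rat. The difference was -1.45 (SE 0.32, 95% interval -2.16 to -0.74), a 2.73-fold lower level, with an adjusted p of 0.00914, and the median-centred difference was -1.20. Under loess it was -1.11 (adjusted p = 0.0439), and it was not called in 6 of 23 alternatives. These included scaling over spots valid in all 8 rats (adjusted p = 0.0511), normexp (0.105), no filter (0.0503) and the methods' t-test after adjustment (0.0862). It also lost the call when COS replicate 3 was left out (-1.21, adjusted p = 0.074) or CES replicate 1 (-1.33, adjusted p = 0.0519).

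Rgs1 and Rgs16 belong to the same subfamily and were not quantified, because their spots were not valid in all CES rats. Rgs1, known from B lymphocytes and other leukocytes, had scaled signals (linear, over the channel median) of 1.89, 1.17, 1.58 and 0.902 in COS rats and 0.155, 0.347, 0.225 and 0.0673 in CES rats. All COS rats were above all CES rats. The scanner software marked the spot as well above background in every COS rat (4 of 4) and in CES replicate 2 (1 of 4), a pattern of at most 1 CES rat that 98 of 35199 gene names (0.278%) showed. With no filter on valid spots, the difference of Rgs1 was -2.98 (SE 0.50, adjusted p = 0.0349 over 35199 genes), where 7.69% of genes were called lower. That value rests on CES signals that were, in 3 of 4 rats, not well above background.

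Rgs16, which can turn off Gi/o and Gq signalling, was at the edge of detection. Its foreground was 2.15 to 2.72 times background in COS rats and 1.41 to 1.70 times in CES rats. The spot was thus valid in 4 of 4 COS rats and 0 of 4 CES rats, as for 178 of 35199 gene names (0.506%), while 8 names (0.0227%) showed the reverse. It was not well above background in any rat, and no fold is given.

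Rgs3 encodes long and short forms through several starts, and its 3 probes did not move alike. The 60-base probes are shown because they read different places of the gene, in order along the plus strand of rn4.
A_43_P21004, chr5:79611553-79611612: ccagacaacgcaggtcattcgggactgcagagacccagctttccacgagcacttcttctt
A_44_P943654, chr5:79661838-79661897: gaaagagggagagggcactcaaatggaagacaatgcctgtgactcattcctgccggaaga
A_44_P468360, chr5:79707124-79708141: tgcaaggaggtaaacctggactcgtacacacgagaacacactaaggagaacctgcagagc
The last spans 1018 bases of the genome and so crosses a gap between exons. It had log2 levels of 1.21, 1.01, 1.20 and 0.65 in COS rats and -0.09, 0.41, 0.11 and -0.34 in CES rats, with no overlap. Its difference was -0.99 (SE 0.21, adjusted p = 0.00728). The middle probe was at 0.30, -0.05, 0.46 and -0.47 in COS rats and at -0.21, -0.17, 0.41 and -0.22 in CES rats, with a difference of -0.11 (SE 0.19, adjusted p = 0.694), so its groups overlapped. The first probe was valid in 3 of 4 COS rats and 0 of 4 CES rats and was not well above background in any rat.

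Averaged over the 2 quantified probes, Rgs3 was at 0.83, 0.57, 0.88 and 0.20 in COS rats and at -0.15, 0.15, 0.27 and -0.28 in CES rats. The groups overlapped, since CES replicate 3 was above COS replicate 4. The difference was -0.62 (SE 0.19, adjusted p = 0.0303), or -0.37 when median-centred. The call was lost in 11 of 23 alternatives. Under loess the difference was -0.15 (adjusted p = 0.268), and it was also not called under normexp (adjusted p = 0.712), quantile normalization (0.228), scaling over spots valid in all 8 rats (0.272), no filter (0.101), the deposited log2 table (0.247) and the methods' t-test after adjustment (0.115). It was lost too in 4 of the 8 fits that left out a rat, namely COS replicate 1, 2 or 3 (adjusted p = 0.0955, 0.0765 and 0.149) or CES replicate 1 (adjusted p = 0.118).

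**Figure D2:**
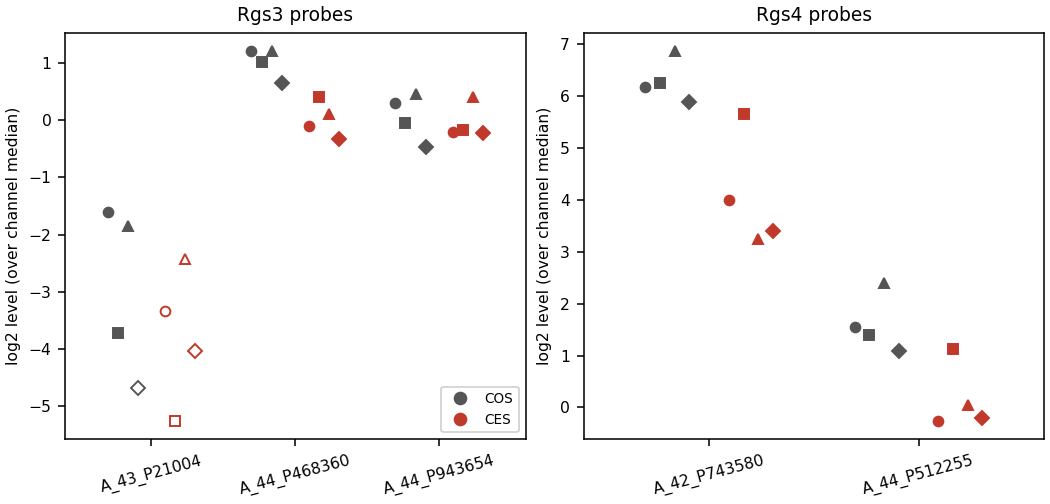
Log2 level of each probe of Rgs3 (left) and Rgs4 (right) in every rat, COS in grey and CES in red, with marker shapes for replicates 1 (circle), 2 (square), 3 (triangle) and 4 (diamond) and open markers where the spot was not valid. A_44_P468360 of Rgs3 separates the groups and A_44_P943654 does not, and both Rgs4 probes have CES replicate 2 above the other CES rats.

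Rgs8, an inhibitor of Gi/o signalling best known from Purkinje cells, was not called in either direction. Its levels were 0.80, 0.76, 1.34 and 0.40 in COS rats and 1.02, 0.74, 1.46 and 0.90 in CES rats, which overlapped. The difference was 0.21 (SE 0.19, 95% interval -0.22 to 0.63, adjusted p = 0.432), or 0.46 when median-centred. Under loess it was 0.46 (SE 0.11, adjusted p = 0.0228), so the call depended on the normalization.

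Rgs7, a neuronal regulator of Go at GABA-B and other receptors, fell by a small amount with little spread. The COS rats were at 3.98, 4.20, 4.43 and 4.10 and the CES rats at 3.33, 3.67, 3.53 and 3.50. The groups did not overlap. The difference was -0.67 (SE 0.17, adjusted p = 0.0155), a 1.59-fold lower level, and -0.41 when median-centred. Under loess it was -0.34 (adjusted p = 0.0285), but it was not called in 9 of 23 alternatives. These were normexp (adjusted p = 0.594), the processed signal of the scanner software (0.0549), quantile normalization (0.0728), scaling over spots valid in all 8 rats (0.164), no filter (0.0652), the deposited log2 table (0.0939) and the methods' t-test after adjustment (0.0766). The call was also lost when COS replicate 3 was left out (-0.55, adjusted p = 0.0862) or CES replicate 1 (-0.60, adjusted p = 0.0674).

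Rgs9, the other R7 gene, is known for its striatal form that limits dopamine and opioid receptor signalling. Its levels were 0.31, 0.54, 0.43 and -0.01 in COS rats and 0.04, 0.43, 0.68 and 0.20 in CES rats, which overlapped. The difference was 0.02 (SE 0.20, 95% interval -0.42 to 0.46, adjusted p = 0.947) and, under loess, 0.28 (adjusted p = 0.0683). Of the 5 listed partners of this subfamily, 3 were on the array and 2 were quantified. Gnb5, the beta subunit that stabilizes Rgs7 and Rgs9, differed by 0.12, Gpr158, a receptor that brings Rgs7 to the membrane, by -0.38, and neither passed the test.

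Rgs10, found in microglia and neurons, had the highest difference of the 8 genes. Its levels were 2.58, 2.11, 2.86 and 2.24 in COS rats and 2.84, 2.43, 3.26 and 3.06 in CES rats, which overlapped. The difference was 0.45 (SE 0.20, 95% interval 0.01 to 0.89), which did not pass the adjusted test (adjusted p = 0.101). Median-centred it was 0.71, and 90.3% of genes had a lower difference. Under loess it was 0.75 (SE 0.16, adjusted p = 0.0183), a call. The median-centred difference ran from 0.54 to 0.83 over 23 alternatives, of which 5 made the call.

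Rgs14, a scaffold with Gi-binding and Ras-binding parts that is known from CA2 pyramidal cells, did not pass the test in either direction. Its levels were 5.37, 5.00, 5.66 and 5.06 in COS rats and 4.98, 4.94, 5.40 and 5.31 in CES rats. The groups overlapped and the difference was -0.11 (SE 0.19, 95% interval -0.53 to 0.30, adjusted p = 0.67). Its sign depended on the scaling, with 0.14 when median-centred and 0.17 under loess (adjusted p = 0.343).

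**Figure D3:**
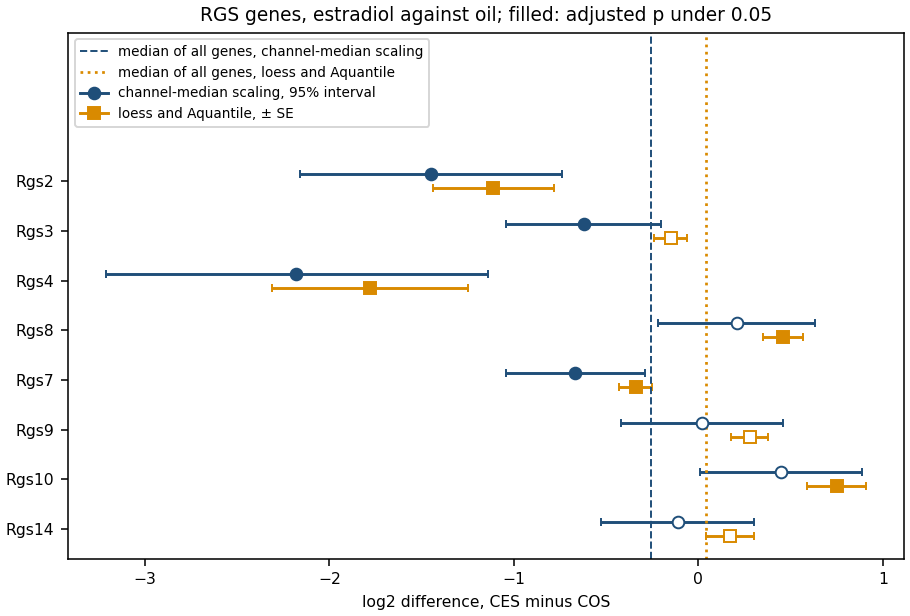
Log2 difference, CES minus COS (n = 4 rats each), of the 8 quantified RGS genes, filled where the adjusted p was under 0.05. Blue circles are channel-median scaling with the 95% interval. Orange squares (± SE) are loess and Aquantile normalization of the normexp-corrected signal. Vertical lines mark the median difference of all genes, -0.25 and 0.04, and Rgs4 and Rgs2 lie furthest to the left of them under both.

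Differences between RGS genes measured in the same channel do not depend on the scaling of that channel. Rgs4 minus Rgs14 was -0.14, 0.31, 0.28 and -0.11 in COS rats and -1.91, -0.22, -3.01 and -2.79 in CES rats. Rgs10 minus Rgs14 was -2.80, -2.89, -2.80 and -2.82 in COS rats and -2.14, -2.52, -2.14 and -2.26 in CES rats. The first of these fell by 2.07 between the group means and the second rose by 0.56, with all CES rats beyond all COS rats in both. These pairs were chosen after the values were seen and were not tested.

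The dyes could be read apart, with 2 rats per group in each. For Rgs4 the difference was -2.85 in Cy3 and -1.51 in Cy5, for Rgs2 -1.76 and -1.14, for Rgs7 -0.77 and -0.56, and for Rgs3 -0.79 and -0.45. The median over all genes was -0.31 in Cy3 and -0.21 in Cy5, so these 4 genes lay below it in each dye. Rgs10 differed by 0.33 and 0.57, Rgs8 by 0.17 and 0.24, Rgs9 by -0.01 and 0.05 and Rgs14 by -0.32 and 0.10.

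**Figure D4:**
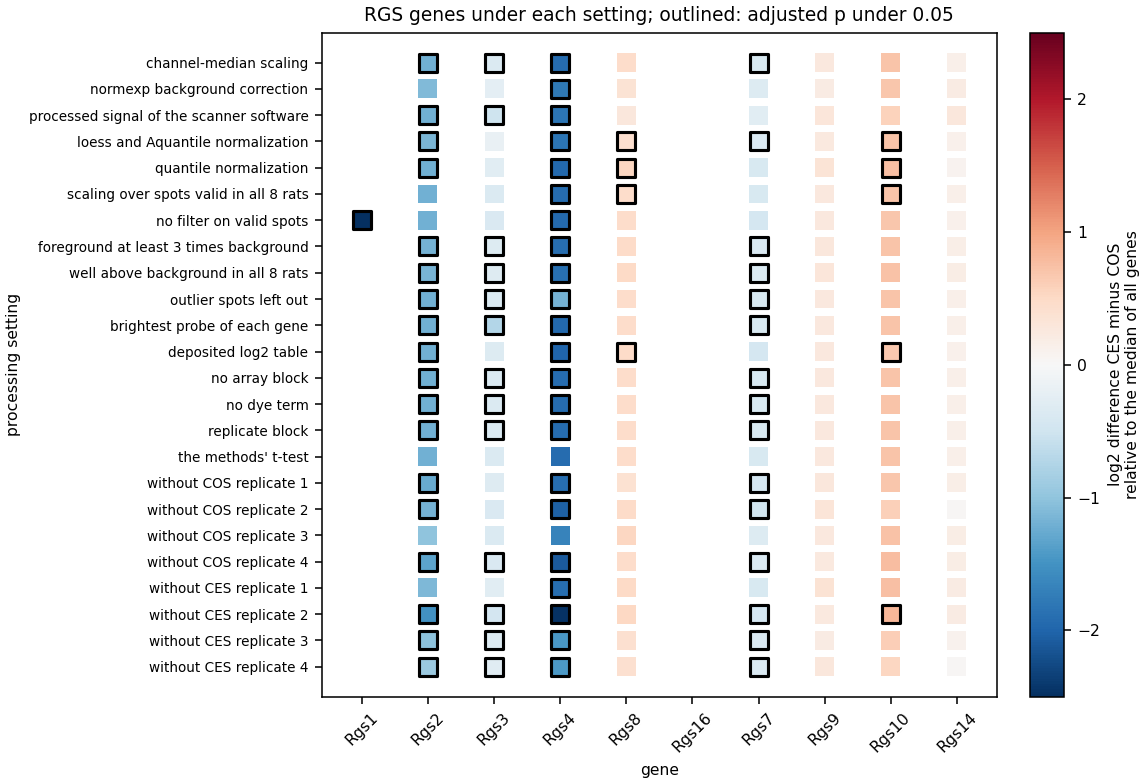
Median-centred difference of each RGS gene (colour, log2, CES minus COS, with the median of all genes subtracted) under channel-median scaling and each of 23 alternatives (rows), outlined where the adjusted p was under 0.05; Rgs1 was fitted in 1 row and Rgs16, not well above background in any rat, is left blank. Rgs4 is blue in all rows, from -2.48 to -1.18, and Rgs10 red in all rows, from 0.54 to 0.83, while the outlines come and go.

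Of 13 other listed genes with an RGS domain, 11 were on the array and 9 were quantified, of which 1 rose (Rgs5) and 2 fell (Rgs19 and Axin1). Rgs5, a vascular and pericyte regulator and a direct neighbour of Rgs4 in RefSeq gene order on chromosome 13, was at 0.43, 0.26, 0.77 and 0.20 in COS rats and at 1.45, 0.79, 1.66 and 0.91 in CES rats. Its groups did not overlap, and its difference was 0.79 (SE 0.17, adjusted p = 0.00793), opposite in sign to that of Rgs4. Rgs4 minus Rgs5 in the same channel ran from 4.75 to 5.17 in COS rats and from 0.74 to 3.94 in CES rats. Rgs19 differed by -0.56 (adjusted p = 0.0395) and Axin1, a scaffold of the Wnt pathway, by -0.70 (adjusted p = 0.0187), and both lost the call under loess. Rgs12 gained a call under loess, as higher (0.48, adjusted p = 0.0259). The median difference of the 9 genes was -0.28, near that of all genes.

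Among the alpha subunits on which RGS proteins act, 4 of the 7 listed Gi/o genes were quantified. Gnai3 fell by 0.86 (adjusted p = 0.00976) and Gnai2 by 0.78 (adjusted p = 0.0115), while Gnai1 and Gnao1 differed by 0.21 and 0.36 and did not pass the test. Of 5 quantified Gq and G12 genes, Gna14 rose by 1.15 (adjusted p = 0.00888) and 4 did not pass, Gnaq among them with -0.20. The calls of Gnai3 and Gna14 held under loess and that of Gnai2 did not (adjusted p = 0.0538). Gnao1 gained a call under loess, as higher (0.65, adjusted p = 0.0498). The median difference was -0.28 over the Gi/o genes and -0.20 over the Gq and G12 genes.

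Downstream of these subunits, Kcnj6, a GIRK channel subunit opened by beta-gamma, rose by 1.24 (SE 0.24, adjusted p = 0.00577), and the 3 other GIRK genes did not pass. Under loess Kcnj3 was also called higher (0.51, adjusted p = 0.024). Plcb1, the phospholipase C activated by Gq, rose by 0.85 (adjusted p = 0.0121) and Plcb3 fell by 1.02 (adjusted p = 0.0136), the latter not called under loess (adjusted p = 0.106). Plcb4 was called higher under loess (0.39, adjusted p = 0.0126). Of 7 quantified receptor kinases and arrestins, Grk5 fell by 1.16 (adjusted p = 0.00485) and Grk4 by 0.89 (adjusted p = 0.0072), both also under loess. Arrb2 gained a call under loess, as higher (0.36, adjusted p = 0.0172). Adrbk2 passed the test as higher (adjusted p = 0.0166) but its spot missed the scanner software's mark in all 4 COS rats, so no size is given. Of 6 other regulators of alpha subunits, Gpsm3 fell by 1.21 (adjusted p = 0.00491), Gpsm1 by 1.02 (adjusted p = 0.00444) and Ric8b by 0.99 (adjusted p = 0.0081), the last well above background in 3 COS rats and 1 CES rat and at -0.24 under loess (adjusted p = 0.0453). The median difference was 0.05 over the GIRK genes, 0.14 over the phospholipases, -0.41 over the kinases and arrestins and -0.72 over the other regulators. Gpsm proteins hold Gi in its inactive form and Ric8b helps alpha subunits fold.

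**Figure D5:**
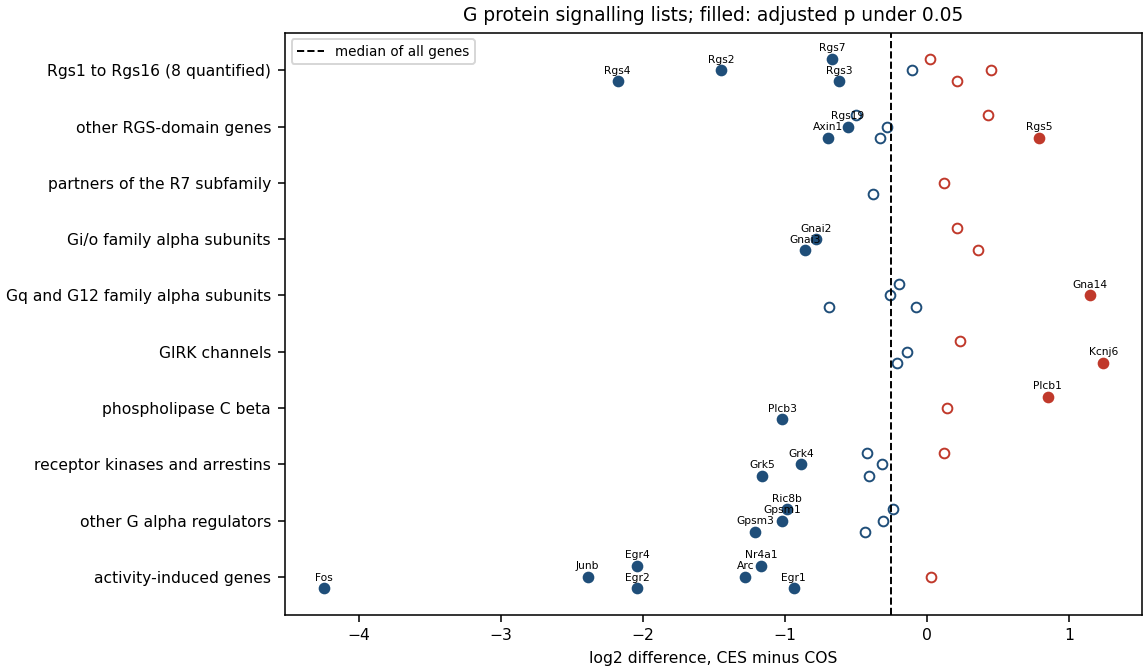
Log2 difference, CES minus COS (n = 4 rats each), of the quantified genes in each list of G protein signalling and in a list of activity-induced genes, filled and named where the adjusted p was under 0.05; genes not well above background in any rat of a group are left out. The dashed line is the median of all genes, -0.25; the filled RGS genes lie between -2.18 and -0.62, and Rgs5, Gna14, Kcnj6 and Plcb1 are filled to the right of 0.

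Genes known to be switched on by neuronal activity were lower in CES rats as well. Of 8 quantified, 7 fell and 0 rose, against 28.3% and 5.8% of all genes, and 5 fell under loess. The remaining gene, Nr4a3, differed by 0.03 and was not called (limma adjusted p = 0.926). The count called lower was 2 without COS replicate 3, and 4 under normexp, scaling over spots valid in all 8 rats and the deposited log2 table. It was 0 by the methods' t-test after adjustment. With only the brightest probe of each gene, 1 was called higher. The median difference was -1.66. Fos, a transcription factor subunit, was at 5.18, 5.82, 5.35 and 4.27 in COS rats and at -0.22, 3.73, 0.25 and -0.15 in CES rats, a difference of -4.25 (SE 0.75, adjusted p = 0.00499). Junb differed by -2.39 and Egr4 by -2.04. Egr2 differed by -2.04, was well above background in 2 of the 4 CES rats and was at -1.07 under loess. CES replicate 2 was the highest CES rat for 5 of these 7 genes and for 3 of the 4 lower RGS genes, and for 45.8% of all genes called lower. Whether activity had a part in the RGS differences was not tested.

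Single cell type markers were called in both directions. No marker list had an adjusted p under 0.05, a level that no list could reach alone with 4 rats per group. In bulk tissue fewer cells of a type and less RNA per cell cannot be told apart. For 13 marker lists, the mean log2 level of the quantified markers was taken, less the median level of all genes in that rat. It was compared by a two-sided exact permutation test over the rats, in which 0.0286 is the smallest p possible. After adjustment over 13 lists, a list could pass only if most lists reached that smallest p together. The lack of a list under 0.05 therefore decides little. Neuronal markers (4 of 5 quantified) differed by 0.56, CA2 and CA3 markers (4 of 6) by 0.82 and astrocyte markers (5 of 5) by 0.63, each with an exact p of 0.0286 (0.0743 adjusted over the lists). Of the astrocyte markers, Aldh1l1 and Gja1 were called higher, and Gfap differed by -1.19 and was not called (adjusted p = 0.062). Endothelial and pericyte markers (4 of 5) differed by -0.46 with the same p. Microglial and macrophage markers (7 of 7) differed by -0.29 (exact p = 0.0571), with a summed scaled signal of 33.9 to 51.4 in COS rats and 25.2 to 35.5 in CES rats. Of the granulocyte and monocyte markers, Lyz2 was quantified and differed by -2.16 on this scale (exact p = 0.0286), and 4 were not quantified, S100a8, S100a9, Ccr2 and Csf3r.

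These values stand beside single RGS genes as follows, and their part in the RGS differences was not tested. Rgs4, Rgs2 and Rgs7 were lower while the neuronal list was higher relative to all genes, with Syt1 and Stmn2 higher and Nefl lower (difference -0.82, adjusted p = 0.0105). Rgs10 was above the median of all genes while the microglial list was below it, with P2ry12 higher and Itgam, Csf1r and Cd68 lower. Rgs5 rose while the pericyte marker Pdgfrb fell by 1.25 (adjusted p = 0.00375). Rgs14 differed by -0.11, or 0.14 when median-centred, while the CA2 and CA3 list differed by 0.82. Of the CA2 and CA3 markers, Amigo2 and Grik4 were called higher and Pcp4 and Bok were not called. The striatal list, named for Rgs9, had 5 of 7 markers quantified and differed by -0.08 (exact p = 0.686). Of the markers of dentate granule cells, Calb1, C1ql2 and Neurod1 were well above background in all rats, Prox1 was not quantified, being well above background in 0 of 8 rats, and the list mean differed by -0.06 (exact p = 0.457). Within that list Neurod1 rose by 1.16 (adjusted p = 0.00516) and C1ql2 differed by -1.23 (adjusted p = 0.0104) and Dsp by -1.24 (adjusted p = 0.00701), so 1 marker was higher and 3 were lower, the last being Tdo2, which was not well above background in any rat. Under loess, C1ql2, Dsp and Tdo2 were not called. Interneuron, oligodendrocyte, thalamic, lymphocyte and choroid plexus lists differed by -0.08, 0.52, -0.20, 0.49 and 0.30, with exact p from 0.143 to 0.743, and the choroid plexus list had its highest level in COS replicate 2.

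The gene most like each lower RGS gene over the 8 rats was found by Pearson's r of log2 levels, as a description in which all points share the scaling and the difference between groups. It was Ppp2cb, a catalytic subunit of protein phosphatase 2A, for Rgs2 (r = 0.998) and Herpud1, a gene of the endoplasmic reticulum stress response, for Rgs7 (r = 0.992). For Rgs3 and Rgs4 it was a probe with no gene symbol in the files, A_44_P490107 (r = 0.997) and A_44_P883659 (r = 0.995). Each of these 4 was itself lower in CES rats, by 0.61 to 1.11 on the log2 scale. Each r is the highest over 21332 quantified genes with 8 points, so a value near 1 could come from that selection alone.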

How the data were processed

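Dentate gyrus RNA of 4 COS and 4 CES rats was hybridised on 4 two-colour Agilent rat arrays of 1 slide, and groups were taken from the labels. The authors scanned and extracted the arrays with Agilent Feature Extraction 10.7.3.1 (from the submitters' processing notes) and deposited foreground mean and background median intensity for both dyes. They also deposited a log2 table, which held log2 of the median signal minus background, shifted by a constant per column, and was used as an alternative. The 2 files of an array were identical, so Cy3 was read for one rat and Cy5 for the other.

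Following the study's methods, a spot was valid at a foreground of at least 2 times background. Background was subtracted, each channel was divided by its median over valid spots, and spots of a gene name valid in all 8 rats (27642 spots, 21332 genes) were averaged before log2. limma 3.58.1 in R 4.3.3 was fitted with dye as a term and array as a random block. Array and group are nested, with 2 arrays per group. Differences between arrays can therefore not be fully told apart from differences between groups. The fitted correlation between rats of 1 array was -0.006 with channel-median scaling, and there leaving out the block changed little (Rgs4 limma adjusted p = 0.0085). The correlation was 0.57 under normexp, 0.24 under loess and 0.28 under scaling over spots valid in all 8 rats. No spot was saturated, and the number of arrays limits the precision. Alternatives covered background correction, normalization, filters, probes, blocks, the methods' t-test and leaving out each rat. The loess alternative started from the normexp-corrected signal, not from the background-subtracted one.

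Named genes were all 10 RGS genes, the called genes of each pathway list (up to 4) and the gene most correlated with each called RGS gene. Arc, Egr1 and Nr4a1 were called but not named by that rule. The RGS genes and all lists were chosen with earlier results of these data known. Same-numbered rats deviated together from their group means (r from 0.21 to 0.34), but they also share a dye, and after the dye was removed r ran from -0.28 to 0.08, so the block by number adds little beyond the dye term.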

Additional observations from a re-analysis of the deposited data

How the results depend on the processing

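The sign of the median-centred difference was unchanged in all 23 alternatives for each of the 8 RGS genes, whereas calls moved with the scaling. Some of these alternatives could not change it. Without the array block or the dye term, with the replicate block and by the methods' t-test, the difference is the same by design. Scaling over spots valid in all 8 rats shifts all genes alike, which the centring removes. RGS genes called higher and lower numbered 2 and 2 under quantile normalization and the deposited log2 table, 2 and 1 under scaling over spots valid in all 8 rats, 2 and 3 under loess, 0 and 1 under normexp, 0 and 3 without a filter on valid spots (Rgs1, Rgs4 and Rgs16, with Rgs2, Rgs3 and Rgs7 no longer called), and 0 and 0 by the methods' t-test after Benjamini-Hochberg adjustment. At an unadjusted p under 0.05 that test called 4 lower. With leave-one-out they ranged from 0 to 1 higher and from 0 to 4 lower, with 0 lower without COS replicate 3, 1 lower without CES replicate 1, and Rgs10 higher without CES replicate 2. With the replicate number as a block, 0 were higher and 4 lower, and no RGS call changed. All genes called higher and lower numbered 125 and 461 under normexp, 3309 and 2221 under loess, 3055 and 2221 under quantile, 3348 and 1718 under scaling over common spots, 3275 and 1927 in the deposited table, 405 and 2707 without a filter, and 0 and 0 by the t-test, which gave 6103 genes with an unadjusted p under 0.05. Leaving out a rat gave 257 to 1855 higher and 914 to 7012 lower.

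Unscaled signs changed for values near 0. Rgs14 was 0.06 under normexp, 0.00 with the processed signal, 0.17 under loess, 0.14 under quantile, 0.29 over common spots, 0.24 in the deposited table, and from -0.26 to 0.01 when a rat was left out, positive without CES replicate 1. Rgs9 ran from -0.10 to 0.16 when a rat was left out, and was -0.10 without COS replicate 4, -0.09 without CES replicate 3, -0.03 without CES replicate 2 and -0.00 without COS replicate 1. Rgs8 was -0.00 with the processed signal, and the granule cell markers 0.03 under loess. The median of all genes was -0.25, 0.04, 0.06, 0.15 and 0.12 under channel-median, loess, quantile, common-spot and deposited scaling. These data do not show which is right. Channel-median scaling rested on fewer valid spots in CES rats than in COS rats of the same dye. Common-spot scaling used the same spots in all rats. Signals near background limited Rgs1, Rgs16 and 1 Rgs3 probe.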

Other observations

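Rgs18, a regulator of megakaryocytes and platelets, was quantified with a wide spread in CES rats. Its log2 levels were -1.41, -2.83, -2.09 and -2.93 in COS rats and -2.18, -3.71, 2.30 and 0.51 in CES rats. The high levels were in replicates 3 and 4 of CES, which shared an array, and the spot was well above background in those 2 CES rats and 0 COS rats. The difference did not pass limma's test (SE 1.00). Rgs18 was singled out after its values were seen, and the part of the array was not tested.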
